A study of Mus musculus with 7 samples.

Results

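The 10 genes described here form the core of the circadian clock: the activators Clock, Arntl (Bmal1 in newer annotations) and Npas2, the repressors Per1, Per2, Per3, Cry1 and Cry2, the nuclear receptor gene Nr1d1 and the output gene Dbp. They were chosen by name, and all 10 of 10 were found among the 43626 genes measured. Their transcripts were compared between the prefrontal cortex of hDISC1AA/+ mice (4 libraries: replicates 1, 3 and 4 and 1 library whose number is in no sample title, called unnumbered) and that of WT mice (3 libraries). All mice were C57BL/6J males aged 8 weeks, and the name hDISC1AA/+ denotes 1 altered Disc1 allele beside a normal one. The labels do not say whether the altered allele holds human sequence. The study's title concerns phosphorylation of DISC1, a scaffold protein of neurons, and the polarity of cortical neurons. The labels do not say whether each library came from a separate mouse, so that p-values measure the spread between these libraries, which may in part be technical. They also do not give the hour of day at which tissue was taken.

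In the clock, the protein pairs CLOCK and BMAL1, or NPAS2 and BMAL1, bind short DNA elements called E-boxes and switch on the Per and Cry genes, Nr1d1 and Dbp. PER and CRY proteins then return to the nucleus and block that activity, while the product of Nr1d1 represses Arntl, so that Arntl is high at the time of day when Dbp, Nr1d1 and the Per genes are low. The loop runs in the cortex as in most tissues of the mouse. There Per1 and Per2 also respond to neuronal activity and to glucocorticoid hormone.

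Promoter windows that hold letters of an E-box, of its related form or of a D-box are shown for 4 of the genes, since factors of the clock are known to bind elements with such letters. The window of Cry2, which also holds the related form, is not shown. RefSeq windows of 300 bases (250 before to 50 after a start, GRCm38.p6) were present for 9 of the 10 genes, 13 windows in all. They were searched on both strands for the E-box CACGTG, for the related box CACGTT, for the D-box TTANNTAA (the element that DBP and its relatives bind) and for the nuclear receptor elements AGGTCA or GGGTCA. Capitals mark matches to the E-box, its related form (AACGTG where it lies on the other strand) and the D-box, each sequence reads 5′ to 3′ along the gene, and a match is a description of these letters only.
Cry1 (chr10:85185005-85185304, minus strand): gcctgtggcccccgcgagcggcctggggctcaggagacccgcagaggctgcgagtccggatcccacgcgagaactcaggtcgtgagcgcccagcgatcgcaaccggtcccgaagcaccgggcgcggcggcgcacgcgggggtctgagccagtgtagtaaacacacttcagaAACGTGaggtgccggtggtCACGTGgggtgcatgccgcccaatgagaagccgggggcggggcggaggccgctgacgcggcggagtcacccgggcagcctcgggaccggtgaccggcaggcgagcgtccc
Per1 (chr11:69098699-69098998, plus strand): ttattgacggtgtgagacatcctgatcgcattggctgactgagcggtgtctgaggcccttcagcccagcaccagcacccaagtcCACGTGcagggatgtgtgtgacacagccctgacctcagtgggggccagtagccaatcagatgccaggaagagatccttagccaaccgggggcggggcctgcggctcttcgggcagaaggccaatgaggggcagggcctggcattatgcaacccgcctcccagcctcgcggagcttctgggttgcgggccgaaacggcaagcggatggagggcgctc
Nr1d1 (chr11:98775328-98775627, minus strand): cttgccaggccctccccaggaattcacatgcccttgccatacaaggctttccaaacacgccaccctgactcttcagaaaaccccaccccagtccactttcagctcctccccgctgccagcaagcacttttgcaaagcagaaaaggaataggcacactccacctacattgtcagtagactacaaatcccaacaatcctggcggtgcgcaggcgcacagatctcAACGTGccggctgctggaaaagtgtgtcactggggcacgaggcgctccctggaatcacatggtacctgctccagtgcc
Per3 (chr4:151044616-151044915, minus strand): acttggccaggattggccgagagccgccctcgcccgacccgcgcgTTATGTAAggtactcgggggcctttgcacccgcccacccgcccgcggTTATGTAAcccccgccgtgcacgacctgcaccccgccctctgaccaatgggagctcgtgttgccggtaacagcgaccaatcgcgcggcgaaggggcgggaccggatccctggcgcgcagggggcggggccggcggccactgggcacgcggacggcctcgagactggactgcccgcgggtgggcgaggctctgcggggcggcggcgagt
The E-box CACGTG stood in 2 of the 13 windows, those of Cry1 and of the first listed start of Per1, and in 7.15% of all 32851 promoter windows of the table. Its related form was found in 3 windows (Cry1, Cry2 and Nr1d1; 4.68% of all windows). The D-box occurred in 1 window, that of Per3, which held 2 copies (6% of all windows). A receptor element lay in 3 windows, 1 each of Arntl, Clock and Per1 (27.5% of all windows), and the windows of Dbp and Npas2 held none of these letters.

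The libraries held 33512557 to 36005116 reads assigned to genes in 6 cases and 63845254 in WT replicate 1, which left 670 to 8788 reads per clock gene and library. Values are normalized counts as deposited, which are reads scaled by a size factor of each library. WT replicate 1 and hDISC1AA/+ replicate 1 stood apart from the other libraries in some measures. The summed normalized counts of 7 oligodendrocyte markers were 36244 to 41876 in hDISC1AA/+, against 129251 in WT replicate 1 and 38728 and 46868 in the other WT libraries. For 5 endothelial markers they were 5906 to 7498 in hDISC1AA/+, against 1655 in WT replicate 1 and 6514 and 8301 in the others. In hDISC1AA/+ replicate 1 the deviations of genes from their means followed the GC content and length of transcripts with an R2 of 0.358, against 0.0242 to 0.0779 in the other hDISC1AA/+ libraries and 0.0296 to 0.119 in WT. Genes of the mitochondrial genome held 1.94% of its normalized counts, against 5.14% to 6.94% in the other libraries. The 4 meningeal fibroblast markers summed to 5428 there, against 1375 to 3125 elsewhere, and Ttr of choroid plexus had 758 against 14.2 to 41.5. The 6 neuronal markers summed to 250622 to 285844 in hDISC1AA/+ and 271023 to 282245 in WT. Among them, hDISC1AA/+ replicate 1 was lowest in Gad1 (9023 against 12903 to 21486) and highest in Slc17a7 (78478 against 55502 to 68748). The remaining libraries were not alike in all lists. The 2 olfactory bulb markers summed to 5553 in the unnumbered hDISC1AA/+ library, 2110 in replicate 3 and 4228 in replicate 4. In WT replicates 2 and 3 they summed to 3648 and 2379, against 517 in hDISC1AA/+ replicate 1 and 981 in WT replicate 1. Six6, which marks the suprachiasmatic nucleus, the central clock of the hypothalamus, was at 0 in all 7 libraries. Of the other 4 genes listed for that nucleus, Avp had 4.15 to 8.23 normalized counts in hDISC1AA/+ and 0 to 2.57 in WT, Lhx1 1.28 to 11.3 and Prok2 10.6 to 23.1 over all libraries. Vip, which cortical interneurons also express, had 1169 to 2160 in hDISC1AA/+ and 1794 to 2644 in WT.

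No clock gene differed between the genotypes by the test across all genes, and the larger differences lay between libraries of the same genotype. Of the 10 genes 0 passed (limma, Benjamini-Hochberg adjusted p under 0.05 over 17670 genes tested; smallest adjusted p 0.974), against 0% of all genes. None of the 10 had an unadjusted p under 0.05, which 431 of all genes (2.44%) had. On the whole reads recovered from the table, edgeR and DESeq2 also called 0 of the 10 and 0 genes in all. With edgeR 472 of 17670 genes (2.67%) had an unadjusted p under 0.05. With DESeq2, run without the filter on low values, 604 of 28315 genes (2.13%) did, so that the shares rest on unlike sets of genes. The median log2 difference was -0.04 for the clock genes and -0.01 for all genes, and the median size of the difference was 0.08 and 0.13. The 95% confidence interval lay within 2-fold in either direction for 8 of the 10 genes (77.4% of all genes) and within 1.5-fold for 5 (54% of all genes), and for Per2 and Per3 the interval reached past 2-fold.

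**Figure D1:**
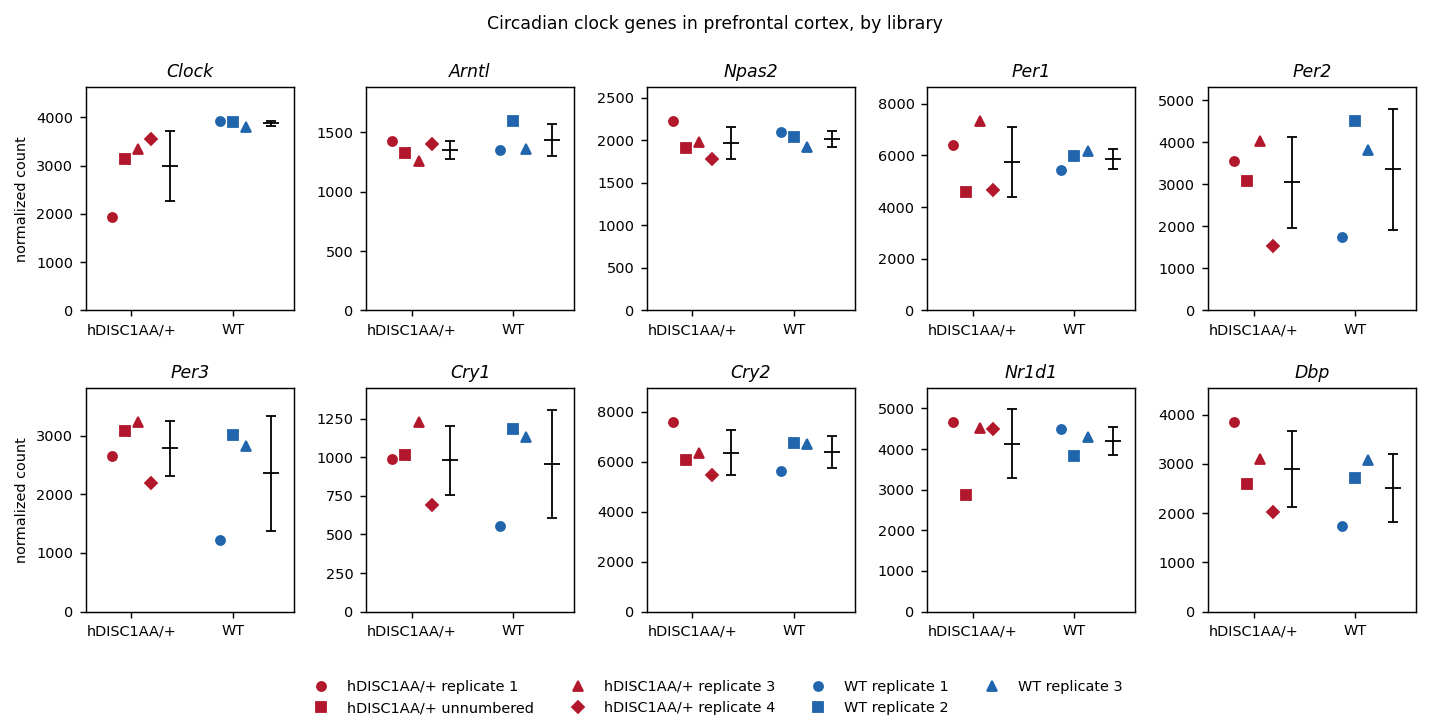
Normalized counts (vertical axes from 0) of the 10 clock genes in each library, hDISC1AA/+ in red and WT in blue, with mean and SD per genotype as black bars. Per2 in hDISC1AA/+ replicate 4 (1538) and WT replicate 1 (1750) lies below the other 5 libraries (3084 to 4497), whereas Arntl spans only 1261 to 1592.

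Among the activators, Clock, whose protein is one partner of the E-box binding pair, was the only one of the 10 genes whose genotypes did not overlap. Clock (ENSMUSG00000029238, chromosome 5, 76209868 to 76304792, minus strand, GRCm38) had 1926, 3129, 3339 and 3561 normalized counts in hDISC1AA/+ replicate 1, the unnumbered library and replicates 3 and 4, against 3916, 3899 and 3807 in WT replicates 1 to 3. The WT libraries lay close together and every hDISC1AA/+ library was lower, with replicate 1 far below the rest. Clock averaged 2989 ± 730 in hDISC1AA/+ and 3874 ± 58.8 in WT (SD, n = 4 and 3). Its log2 difference was -0.41 (95% CI -0.86 to 0.03; limma adjusted p = 0.974). An exact two-sided permutation test, with 35 possible divisions of the libraries, gave p = 0.0571. That is the smallest two-sided p that this test can give with 4 and 3 libraries. Of all genes 5.04% did not overlap, 2.84% with hDISC1AA/+ lower and 2.2% with hDISC1AA/+ higher, so that 1 of 10 is near the background. Without hDISC1AA/+ replicate 1 the log2 difference was -0.21. The Clock transcript has the lowest GC content of the 10 (40.9%). After correction for GC content and length Clock had 2695, 3176, 3228 and 3299 in hDISC1AA/+ in the same order, against 3802, 3424 and 3512 in WT, with a log2 difference of -0.21. In bulk tissue, fewer cells of a type and less RNA per cell cannot be told apart.

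Arntl encodes BMAL1, the partner of both CLOCK and NPAS2, and was among the steadiest of the 10. Arntl (ENSMUSG00000055116, chromosome 7, 113207465 to 113314126, plus strand) had 1428, 1322, 1261 and 1403 normalized counts in hDISC1AA/+ in the order above, against 1354, 1592 and 1359 in WT. The groups overlapped, and Arntl averaged 1354 ± 76.5 in hDISC1AA/+ and 1435 ± 136 in WT (SD, n = 4 and 3). The log2 difference was -0.08 (95% CI -0.32 to 0.15; limma adjusted p = 0.975). Npas2, a relative of Clock that can replace it in forebrain neurons, had 2221, 1909, 1977 and 1776 in hDISC1AA/+, against 2094, 2033 and 1917 in WT (chromosome 1, 39193731 to 39363236). It too varied little, by 1.25-fold over the 7 libraries, and its log2 difference was -0.04 (95% CI -0.27 to 0.20; limma adjusted p = 0.998).

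Of the repressors, Per2, Per3 and Cry1 varied most and did so in both genotypes. Per2 (ENSMUSG00000055866, chromosome 1, 91415982 to 91459324, minus strand) had 3549, 3084, 4020 and 1538 normalized counts in hDISC1AA/+ in the order above, against 1750, 4497 and 3820 in WT. hDISC1AA/+ replicate 4 and WT replicate 1 were low, the other 5 libraries were high, and the genotypes overlapped. Per2 averaged 3048 ± 1076 in hDISC1AA/+ and 3355 ± 1431 in WT (SD, n = 4 and 3), with a log2 difference of -0.12 (95% CI -1.06 to 0.83; limma adjusted p = 0.998). The difference was -0.53 without WT replicate 1 and 0.18 without hDISC1AA/+ replicate 4, so that its sign rested on single libraries. The highest Per2 value was 2.92 times the lowest.

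Per3, the third period gene, is involved in the timing of sleep and in the output of the clock. Per3 (chromosome 4, 151003652 to 151044665) had 2657, 3080, 3228 and 2191 normalized counts in hDISC1AA/+, against 1228, 3023 and 2829 in WT. WT replicate 1 was far lower than all others and hDISC1AA/+ replicate 4 was the next lowest. The log2 difference was 0.33 (95% CI -0.37 to 1.03; limma adjusted p = 0.974) and turned to -0.08 without WT replicate 1. Cry1, a strong repressor that peaks late in the cycle, had 989, 1019, 1227 and 689 in hDISC1AA/+, against 555, 1187 and 1133 in WT (chromosome 10, 85131700 to 85185064). Again hDISC1AA/+ replicate 4 and WT replicate 1 were the lowest of the 7. The log2 difference of Cry1 was 0.08 (95% CI -0.58 to 0.75; limma adjusted p = 0.998) and turned to -0.27 without WT replicate 1.

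Per1 and Cry2 varied less. Per1, the period gene that responds fastest to activity and glucocorticoids, had 6397, 4583, 7315 and 4665 normalized counts in hDISC1AA/+, against 5421, 5979 and 6182 in WT (chromosome 11, 69095217 to 69109960). The WT libraries all lay inside the range of the hDISC1AA/+ libraries, in which the unnumbered library and replicate 4 were low. The log2 difference of Per1 was -0.06 (95% CI -0.44 to 0.33; limma adjusted p = 0.998). Cry2, which encodes the weaker of the cryptochrome repressors, had 7570, 6083, 6350 and 5468 in hDISC1AA/+, against 5640, 6762 and 6724 in WT (chromosome 2, 92403646 to 92434043). Its lowest libraries were once more hDISC1AA/+ replicate 4 and WT replicate 1, and its log2 difference was -0.01 (95% CI -0.29 to 0.28; limma adjusted p = 0.998).

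Nr1d1 encodes REV-ERB alpha, the receptor that represses Arntl. Nr1d1 (chromosome 11, 98767932 to 98775333) had 4654, 2874, 4518 and 4494 normalized counts in hDISC1AA/+, against 4489, 3824 and 4296 in WT. The unnumbered hDISC1AA/+ library alone was low, while hDISC1AA/+ replicate 4 and WT replicate 1, low in Per2 and Cry1, were not. The log2 difference was -0.05 (95% CI -0.44 to 0.34; limma adjusted p = 0.998) and 0.12 without the unnumbered library. Dbp, a transcription factor driven by the clock and often read as its output, had 3843, 2602, 3092 and 2028 in hDISC1AA/+, against 1737, 2723 and 3076 in WT (chromosome 7, 45705088 to 45710203). WT replicate 1 and hDISC1AA/+ replicate 4 were lowest and hDISC1AA/+ replicate 1 highest, a ratio of 2.21. The log2 difference of Dbp was 0.20 (95% CI -0.37 to 0.78; limma adjusted p = 0.974) and -0.04 without WT replicate 1. On the opposite strand, Sphk2 shares 18% of the exonic bases of Dbp, Thra 8.55% of those of Nr1d1 and D930015M05Rik 4.67% of those of Cry2. Neither the kit nor the counting is described as strand-specific, and reads of these partners cannot be told apart there.

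**Figure D2:**
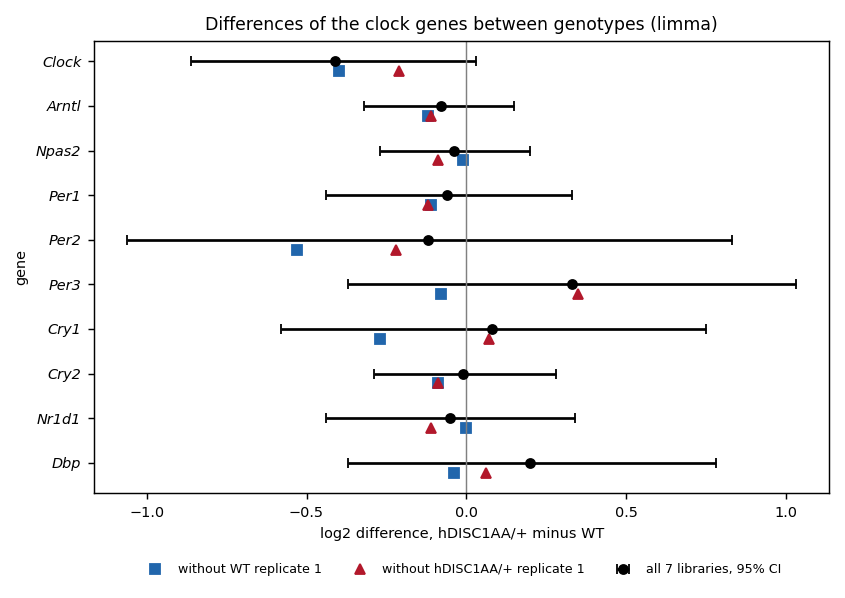
Log2 difference of each clock gene, hDISC1AA/+ minus WT (horizontal axis), with the 95% confidence interval of limma over 7 libraries in black, and the difference without WT replicate 1 (blue squares) or without hDISC1AA/+ replicate 1 (red triangles). All 10 intervals include 0, and Per3, Cry1 and Dbp change side without WT replicate 1.

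Per kilobase of exon, Nr1d1 had the highest level of the 10 and Arntl the lowest. Nr1d1 averaged 1344 normalized counts per kilobase in hDISC1AA/+ and 1366 in WT. Per1 (1019 and 1041), Cry2 (1008 and 1009) and Dbp (966 and 839) followed in the same order of genotypes, with library ranges that overlapped one another. Per2 averaged 520 in hDISC1AA/+ and 573 in WT, and Npas2 411 and 421. Npas2 spanned 371 to 464 over the 7 libraries and so lay just above Cry1 (166 to 367), while Cry1, Per3 (128 to 336), Clock (140 to 285) and Arntl (168 to 212) overlapped. These levels use the exons of all annotated transcripts, which understates genes with long rarely used exons.

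Within genotypes, Per2, Per3, Cry1 and Dbp varied more than the activators Arntl and Npas2. The SD within genotype on the log2 scale was 0.665 for Per2, 0.498 for Per3, 0.473 for Cry1 and 0.408 for Dbp. Among genes whose mean level lay within 0.5 log2 units, 98.9% varied less than Per2, 97.2% less than Per3, 95.2% less than Cry1 and 94.6% less than Dbp. For Arntl (SD 0.106) the share that varied less was 19.5%, and for Npas2 (0.112) 25.3%. Without WT replicate 1 and hDISC1AA/+ replicate 1, a choice made after the data were seen, the same shares were 99.7% for Per2, 98.2% for Cry1, 95.9% for Per3 and 96.4% for Dbp. For Per1 the share was 85.5% with all libraries and 99.1% without the pair, and for Nr1d1 82.5% and 98.5%, whereas for Clock it was 88.3% and 40.5%. The share was 59.5% for Arntl, 35.7% for Npas2 and 56.4% for Cry2. The SD itself, without the pair, was 0.592 for Per2, 0.348 for Cry1, 0.26 for Dbp and 0.252 for Per3, against 0.113 for Arntl, 0.0732 for Npas2 and 0.0776 for Clock. The SDs of Per2, Per3, Cry1, Dbp, Clock, Npas2 and Cry2 (0.178 with and 0.0907 without the pair) were thus smaller without these libraries. Those of Per1 and Nr1d1 (0.313 each) and of Arntl were not.

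**Figure D3:**
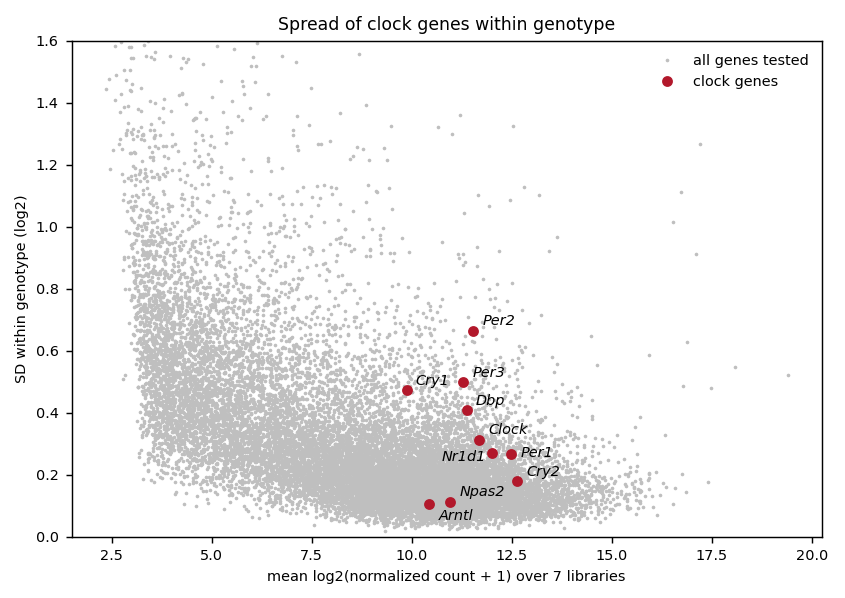
Spread within genotype (SD of log2 values, vertical axis) against mean level (log2 of normalized count + 1, horizontal axis) for all 17670 genes tested (grey) and the clock genes (red); 98 genes with an SD above 1.6 are not drawn. Per2 (0.665) and Per3 (0.498) lie above most genes of their level, Arntl (0.106) and Npas2 (0.112) below.

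The ratio of Arntl to genes of the opposing phase does not depend on the scaling of a library. It can still depend on the GC content and length of transcripts. After correction for these, hDISC1AA/+ replicate 1 had 3084 for Dbp instead of 3843, and 1380 for Arntl instead of 1428. Arntl varied less than the opposing genes, so that the ratio largely follows the opposing gene. Whether it measures the state of the clock was not tested. For Arntl over Dbp the log2 ratio was -1.43, -0.98, -1.29 and -0.53 in hDISC1AA/+ replicate 1, the unnumbered library and replicates 3 and 4, against -0.36, -0.77 and -1.18 in WT replicates 1 to 3. Both genotypes spanned nearly the same range, and the difference of the means was -0.29 beside an SD within genotype of 0.40. It was -0.08 without WT replicate 1, and 0.04 without that library and hDISC1AA/+ replicate 1. Over Per2 the log2 ratio was -1.31, -1.22, -1.67 and -0.13 in hDISC1AA/+, against -0.37, -1.50 and -1.49 in WT, a 2.91-fold span with a difference of the means of 0.03, or 0.41 without WT replicate 1. Here hDISC1AA/+ replicate 4 and WT replicate 1 stood well above the other 5 libraries. Over Per3 WT replicate 1 (0.14) and hDISC1AA/+ replicate 4 (-0.64) were again the highest, and the remaining libraries had -1.36 to -0.90. The difference over Per3 was -0.41, and -0.04 without WT replicate 1.

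Against Per1 and Nr1d1 the order was another one. The log2 ratio of Arntl to Nr1d1 was -1.70, -1.12, -1.84 and -1.68 in hDISC1AA/+, against -1.73, -1.26 and -1.66 in WT, and was highest in the unnumbered hDISC1AA/+ library and WT replicate 2. To Per1 it was -2.54 to -1.73 in hDISC1AA/+ and -2.18 to -1.91 in WT. Against the mean of the 5 opposing genes the log2 ratio was -1.50, -1.27, -1.74 and -0.94 in hDISC1AA/+ (mean -1.36 ± 0.34 SD, n = 4), against -0.86, -1.27 and -1.51 in WT (mean -1.22 ± 0.33 SD, n = 3). The difference was -0.15, and turned to 0.03 without WT replicate 1. The genotypes overlapped in all 6 ratios, and each difference between them was smaller than the SD within genotype. The span over libraries was 0.80 in hDISC1AA/+ and 0.65 in WT for the mean of the 5. Whether libraries with a high and a low ratio were collected at different hours was not tested, as no label gives the hour.

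**Figure D4:**
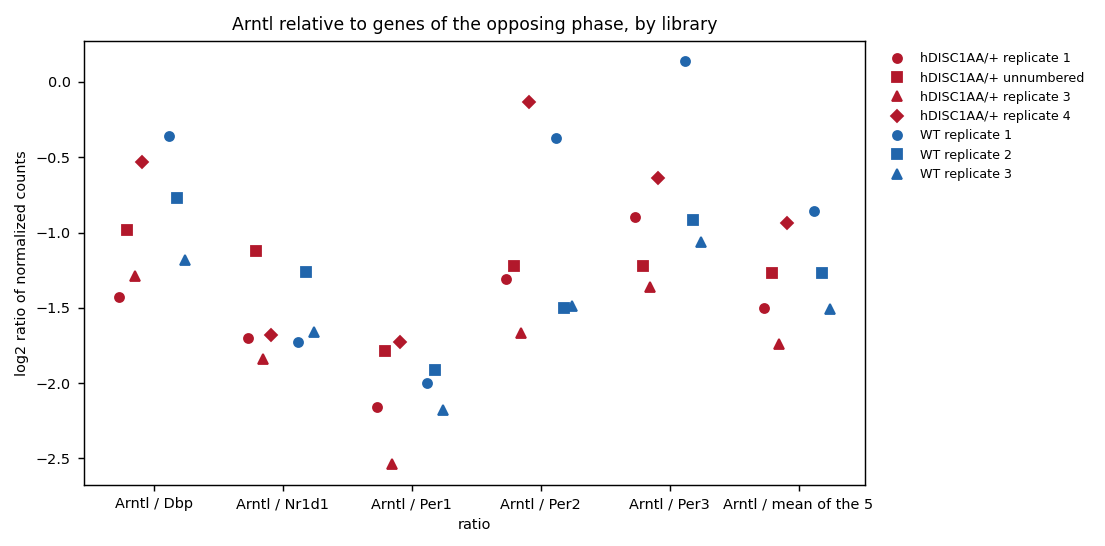
Log2 ratio of Arntl to each gene of the opposing phase and to the mean of the 5 (vertical axis) in the 4 hDISC1AA/+ libraries (red, left of each pair) and the 3 WT libraries (blue, right). hDISC1AA/+ replicate 4 (-0.13) and WT replicate 1 (-0.37) lie highest in the ratio to Per2, and the genotypes overlap in all 6 ratios.

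Arntl itself varied less between libraries than the opposing genes. Across the 7 libraries no relation of Arntl passed the test for any of the 8 clock genes for which the relation is given. Pearson's r lay between -0.08 (Per1; exact permutation p = 0.876) and 0.32 (Cry2; exact permutation p = 0.501), two-sided, with an adjusted p of 0.991 for each over 9 relations. With Dbp r was 0.04 and Spearman's rho 0.11 (exact permutation p = 0.94 and 0.84), and with Nr1d1 -0.00 and 0.04 (0.991 and 0.963). For Per2, whose libraries fell into 2 separate sets, no pooled value is given. Without WT replicate 2 and hDISC1AA/+ replicate 3, farthest from the median of Arntl, r was 0.35 for Dbp and 0.76 for Nr1d1 over 5 libraries. With Per1 it was 0.43 and with Per3 0.00, where Spearman's rho over all 7 had been -0.39 (exact permutation p = 0.396). Over the same 5 libraries r was -0.60 for Clock, -0.07 for Cry1, 0.29 for Npas2 and 0.39 for Cry2.

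**Figure D5:**
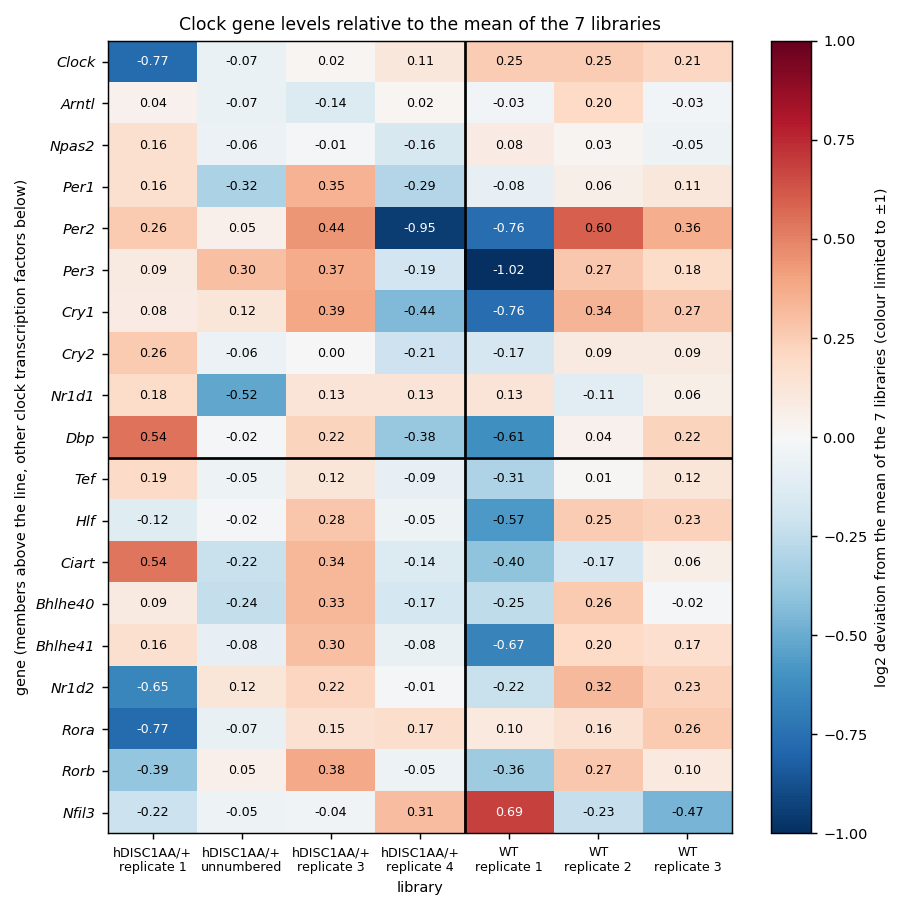
Log2 deviation of each gene (rows) from its mean over the 7 libraries (columns; hDISC1AA/+ left of the vertical line, WT right), for the 10 clock genes above the horizontal line and 9 other clock transcription factors below; red is above the mean and blue below. hDISC1AA/+ replicate 4 and WT replicate 1 are low in Per2 (-0.95 and -0.76), Cry1 (-0.44 and -0.76) and Dbp (-0.38 and -0.61), but not in Nr1d1 (0.13 in both).

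Other genes of the clock were measured beside the 10. Of 29 such genes, 28 had levels that could be tested; 0 passed in either direction (limma), 16 were higher and 12 lower in hDISC1AA/+, and none of the 28 had an unadjusted p under 0.05 or groups that did not overlap. Avp, with too few reads to be tested, did not overlap. Their median log2 difference was 0.01. The smallest unadjusted p belonged to Cirbp, a cold-inducible RNA-binding protein gene, with 2135 ± 219 normalized counts in hDISC1AA/+ and 1823 ± 30.3 in WT (log2 difference 0.22). Gsk3b, a kinase that marks clock proteins for turnover, had 8721 ± 1126 and 10207 ± 593 in the same order (-0.23). Tsc22d3, a glucocorticoid-induced gene, had 1669 ± 202 and 2251 ± 883 (-0.37). WT replicate 1 had 3270 for Tsc22d3, and WT replicates 2 and 3 (1720 and 1763) lay inside the hDISC1AA/+ range of 1448 to 1863. Ciart, a repressor of CLOCK and BMAL1, had 749 ± 191 and 599 ± 95.1 in the same order of genotypes (0.30). All 4 had a limma adjusted p of 0.974.

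Several of these genes followed the opposing genes from library to library. When all 17660 other genes tested were ranked by their correlation with the ratio of the 5 opposing genes to Arntl over the 7 libraries, 7 of the 28 lay in the top 10% and 1 in the bottom 10%. Tef, which encodes a relative of DBP, ranked 137th (r = 0.889), Wee1, a cell cycle kinase gene under the clock, 223rd (0.862) and Bhlhe41 348th (0.830). Ciart (0.798), Bhlhe40 (0.741) and Hlf (0.717) also lay in the top 10%. Most of the 28 genes lay in neither the top nor the bottom 10%, such as Nr1d2 (r = 0.155) and Usp2 (0.246). Tef had 20011, 16896, 19064 and 16492 normalized counts in hDISC1AA/+, against 14115, 17617 and 19030 in WT. At the other end stood Nfil3, a repressor that binds the same D-boxes as DBP and runs against it in phase (r = -0.771, rank 17341). Nfil3 had 256, 288, 290 and 370 in hDISC1AA/+, against 480, 254 and 215 in WT, so that hDISC1AA/+ replicate 4 and WT replicate 1 were the highest. Without WT replicate 1, a choice made after the data were seen, r was 0.846 for Tef, 0.770 for Wee1 and 0.819 for Bhlhe41. It was 0.705 for Ciart, 0.650 for Bhlhe40, 0.477 for Hlf and -0.596 for Nfil3. The median size of r was 0.459 for the 28 genes and 0.367 for all genes. These correlations are descriptions over 7 libraries that share depth, quality and tissue composition.

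Genes that respond to activity and to glucocorticoids, which also act on Per1 and Per2, varied between libraries in another order when summed. Single genes did not all do so. Egr1 had 19511, 13565, 20998 and 15618 normalized counts in hDISC1AA/+ in the order above, against 16951, 21254 and 19316 in WT. Its lowest libraries were those of Per1: the unnumbered library, hDISC1AA/+ replicate 4 and WT replicate 1. Fos, another gene of the list, was instead highest in hDISC1AA/+ replicate 4 (3661) and WT replicate 1 (3269). Of 14 activity-induced genes 0 passed (limma), 3 were higher and 11 lower in hDISC1AA/+, with a median log2 difference of -0.10. Nr4a3, a nuclear receptor gene induced by activity, came first by unadjusted p, with 1491 ± 328 normalized counts in hDISC1AA/+ and 2176 ± 823 in WT (log2 difference -0.50; limma adjusted p = 0.974). For Nr4a3 WT replicate 1 had 3098, and WT replicates 2 and 3 (1916 and 1514) lay inside the hDISC1AA/+ range of 1220 to 1968. Arc, a regulator of synapses, had 11913, 5749, 15581 and 12648 in hDISC1AA/+, against 18634, 12006 and 9384 in WT. The sum of the 14 genes was lowest in the unnumbered hDISC1AA/+ library (35907), which was also lowest in Per1 and Nr1d1. It was 57488, 68126 and 61540 in hDISC1AA/+ replicates 1, 3 and 4, and 73298, 58703 and 50890 in WT. With each gene counted alike, the mean log2 deviation of the 14 genes was highest in WT replicate 1 (0.49) and hDISC1AA/+ replicate 4 (0.30). It was -0.70 to 0.27 in the other libraries. WT replicate 1 and hDISC1AA/+ replicate 4 were the lowest libraries in Per2.

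Of 13 glucocorticoid-responsive genes 0 passed (limma), 1 was higher and 12 were lower in hDISC1AA/+, with a median log2 difference of -0.23. Klf9, a glucocorticoid-induced repressor, had 6002 ± 889 normalized counts in hDISC1AA/+ and 7266 ± 1028 in WT (log2 difference -0.28; limma adjusted p = 0.974). For Klf9 WT replicate 1 had 8448, and WT replicates 2 and 3 (6777 and 6575) lay inside the hDISC1AA/+ range of 5055 to 7203. Fkbp5, a co-chaperone of the receptor, had 1349, 999, 1372 and 804 in hDISC1AA/+, against 2149, 1061 and 1216 in WT. For Fkbp5 WT replicate 1 was highest and hDISC1AA/+ replicate 4 lowest, and both were low in Per2. Zbtb16, another gene of the list, had 1873, 1523, 1737 and 1121 in hDISC1AA/+, against 1504, 1908 and 1838 in WT. Its lowest libraries were hDISC1AA/+ replicate 4 and WT replicate 1, as for Per2. The sum of the 13 genes was 19603 to 23982 in hDISC1AA/+, against 34554 in WT replicate 1 and 20760 and 22249 in the other WT libraries. The part of tissue composition, activity or hormone in the levels of the clock genes was not tested.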

How the data were processed

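RNA of mouse prefrontal cortex was sequenced in 7 libraries, with groups taken from the genotype label. Per the submitters' processing notes, the tools were HISAT2 2.1.0, Trimmomatic 0.39, DESeq2 1.26.0 and HTSeq 0.6.1 (role and order unstated) and the build mm10. For annotation and strand setting nothing is stated. The deposited table holds a signal, taken as normalized counts: in each column 100% of the values are whole multiples of 1 step (tolerance 0.01 reads), which gave back whole reads. Limma 3.58.1, chosen since these are no raw counts, (trend, robust) was run on log2(normalized count + 1), two-sided, for 17670 genes with at least 10 in at least 3 libraries, adjusted after Benjamini and Hochberg (threshold 0.05). That scale understates fold changes of low genes. Alternatives were edgeR 4.0.16 and DESeq2 1.42.0 on recovered reads, other pseudocounts, filters, scalings and weights, a GC content and length correction, and libraries left out. Symbols and coordinates come from GENCODE M21 (GRCm38), which matched 42545 of 43626 identifiers. Broken lines of 3 genes were left out. Limma was tested on simulated data. The named genes were the 10 members, up to 4 genes of each list with the smallest unadjusted p, and the 5 genes most and least like the ratio of the opposing genes to Arntl (Gm and Rik models excluded); of the lists, genes that show the order of libraries were added after their values were seen. The values of 1 listed gene are not reported here. Members and lists were chosen with earlier results of these data known.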

Additional observations from a re-analysis of the deposited data

Results flagged for a closer look

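Nr1d1 in hDISC1AA/+ had 1 library far from the other 3: the unnumbered library had 2874 normalized counts and the others 4494 to 4654. The gap to the nearest library was 0.91 of the group's range, above Dixon's 95% critical value for 4 samples. Of 16 groups of values examined (the 10 clock genes and 6 ratios in hDISC1AA/+), this was the 1 that stood out so, and chance gives about 1 in 20. The WT group, with 3 libraries, was not examined in this way. After correction for GC content and length, Nr1d1 had 3921 in hDISC1AA/+ replicate 1 and 2894 in the unnumbered library. Replicates 3 and 4 then had 4623 and 4803. The unnumbered library was still the lowest, but the others lay farther apart, and the gap was not examined on these values. The unnumbered library was also the lowest in Per1 (4583) and in the sum of activity-induced genes (35907). It was the highest in the sum of 2 olfactory bulb markers (5553). What these values share was not tested.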

How the results depend on the processing

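Under 18 alternatives no clock gene and no gene overall had an adjusted p under 0.05. Clock (-0.51 to -0.21) and Arntl kept their sign under all 18. Clock had an unadjusted p under 0.05 in 6 alternatives (lowest 0.0289, without hDISC1AA/+ replicate 1), and its adjusted p ranged from 0.453 to 1. Of 180 values of the log2 difference 26 changed sign. With upper quartile scaling Npas2 was 0.02, Per1 0.00, Cry2 0.05 and Nr1d1 0.01; with limma array weights Cry1 was -0.19 and Dbp -0.16; with edgeR Cry2 was 0.00. Without WT replicate 1 and hDISC1AA/+ replicate 1 together Per3 was -0.07, Cry1 -0.29 and Dbp -0.19. With 1 library left out at a time Npas2 ranged from -0.09 to 0.01, Per1 from -0.18 to 0.04, Per2 from -0.53 to 0.18, Per3 from -0.08 to 0.57, Cry1 from -0.27 to 0.28, Cry2 from -0.09 to 0.06, Nr1d1 from -0.11 to 0.12 and Dbp from -0.04 to 0.37. The cause of these changes was not tested. The number of genes with an unadjusted p under 0.05, 431 in the main test, was 909 with no filter, 1823 with array weights, 275 without WT replicate 1, 875 without WT replicate 2 and 218 without the unnumbered library. The differences in the 6 ratios to Arntl moved by less than the SD within genotype under all 13 alternatives that apply to them. No paired analysis was possible because replicate numbers were given in record order and tie no hDISC1AA/+ library to a WT library. Depth was at least 670 reads per clock gene and library. Which of depth, number of libraries and spread between them limits detection was not tested.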

Other observations

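Outside the clock, and leaving out Gm and Rik gene models, the genes that followed the ratio of the 5 opposing genes to Arntl most closely over the 7 libraries were Rps6ka2, a ribosomal S6 kinase gene (r = 0.986), Abca12, a lipid transporter gene with 17.3 or fewer normalized counts (0.981), Ptgds, which encodes the brain's prostaglandin D synthase (0.980), Afap1l1 (0.972) and Ccdc184 (0.971). Ptgds had 34927, 29766, 42890 and 26636 normalized counts in hDISC1AA/+ replicate 1, the unnumbered library and replicates 3 and 4, against 23003, 31725 and 34660 in WT replicates 1 to 3. Rps6ka2 had 5064, 4307, 5905 and 3659 in hDISC1AA/+, against 3689, 4321 and 4894 in WT. In both, hDISC1AA/+ replicate 3 was highest, and WT replicate 1 and hDISC1AA/+ replicate 4 were the lowest.

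The opposite order was found for Gria1, an AMPA receptor subunit gene (r = -0.978), Snx7 (-0.956), Pid1 (-0.950), the relaxin receptor gene Rxfp1 (-0.948) and Prkra (-0.944). Gria1 had 14829, 14896, 13588 and 16666 normalized counts in hDISC1AA/+, against 16946, 15340 and 14183 in WT, a ratio of 1.25 between the highest and the lowest library. Without WT replicate 1 these values of r were 0.955 to 0.992 and -0.969 to -0.920. Each was picked as an extreme among 17660 genes over 7 libraries and is given as a description.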
